A study of Rattus norvegicus with 8 samples.

Results

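Interferon-stimulated genes were described in rat liver cells captured by laser microdissection (LMD). The 10 genes Mx1, Mx2, Oas1a, Irf1, Irf7, Ifit2, Ifit3, Isg15, Rsad2 and Usp18 were taken by name from the array annotation, which named 27110 genes in all. They had 13 probes, of which 12 were tested. The study asked how bone marrow-derived mesenchymal cells (BM-MCs) act on small hepatocyte-like progenitor cells (SHPCs), which form clusters of small cells in livers whose hepatocytes cannot divide. All rats were F344, labelled as the dipeptidylpeptidase IV (DPPIV)+ strain, although by the methods the recipients were females lacking DPPIV. All recipients had received retrorsine, a plant alkaloid that blocks hepatocyte division, and then partial hepatectomy (Ret/PH). The groups were mature hepatocytes (MHs) of control livers (n = 2), SHPC clusters of control livers without transplanted cells (control SHPCs, n = 3), and SHPC clusters of livers that had received cultured BM-MCs of a male F344 donor through the spleen (BM-MC SHPCs, n = 3). The labels give neither an age nor a time of sampling, and they do not say which animal a sample came from. The p-values therefore rest on the spread of these samples, part of which can be technical, and can be too small. The captured clusters are pieces of tissue in which other liver cells can be present.

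Type I interferons bind the receptor of Ifnar1 and Ifnar2. The kinases Jak1 and Tyk2 then activate signal transducers such as Stat2, and a complex with Irf9 binds the interferon-stimulated response element in the promoters of target genes. Interferon gamma acts through Ifngr1 and Ifngr2, and on promoters through the gamma-activated sequence. Hepatocytes carry both receptors, and the target genes are best known in liver for the response to viruses.

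The promoters of 6 members were in the RefSeq table of build GRCr8 used here, and they are shown because interferon signalling acts on its target genes through such sequences. The 150 bases before each start were searched on both strands for the core of the interferon-stimulated response element, written as GAAA, any 2 bases and GAAA again, and for TTCNNNGAA, the gamma-activated sequence. Matches are in capitals, and a match to the first motif on the other strand reads as TTTC, any 2 bases and TTTC. Overlapping matches were counted separately.

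Oas1a (chr12:41330316-41330465, plus strand): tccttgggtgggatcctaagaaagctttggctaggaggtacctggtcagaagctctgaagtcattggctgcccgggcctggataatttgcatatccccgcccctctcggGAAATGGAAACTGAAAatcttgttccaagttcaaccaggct

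Irf7 (chr1:205800024-205800173, minus strand): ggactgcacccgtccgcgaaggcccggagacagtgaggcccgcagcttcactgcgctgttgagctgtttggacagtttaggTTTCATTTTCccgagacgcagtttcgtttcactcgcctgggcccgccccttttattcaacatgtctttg

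Ifit3 (chr1:241527176-241527325, plus strand): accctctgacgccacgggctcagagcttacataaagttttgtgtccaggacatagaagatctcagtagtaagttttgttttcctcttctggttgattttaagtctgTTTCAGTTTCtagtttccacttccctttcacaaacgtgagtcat

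Rsad2 (chr6:48788121-48788270, minus strand): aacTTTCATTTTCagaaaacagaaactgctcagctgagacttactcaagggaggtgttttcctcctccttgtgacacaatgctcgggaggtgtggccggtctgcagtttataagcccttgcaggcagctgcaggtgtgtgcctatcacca

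Irf1 (chr10:38417785-38417934, plus strand): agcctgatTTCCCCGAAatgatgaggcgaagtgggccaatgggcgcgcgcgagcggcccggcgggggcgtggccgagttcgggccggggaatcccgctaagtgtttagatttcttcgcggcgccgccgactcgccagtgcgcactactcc

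Mx1 (chr11:50294607-50294756, minus strand): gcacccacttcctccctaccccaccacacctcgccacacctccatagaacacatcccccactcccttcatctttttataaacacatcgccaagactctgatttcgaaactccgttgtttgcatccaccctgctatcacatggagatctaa

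The first motif was found in 4 of these 6 promoters and in 687 of 33469 promoters of the table (2.05%). Oas1a had 2 overlapping matches, from 41 to 26 bases before the start. Ifit3 had its match from 44 to 35 bases, Irf7 from 69 to 60 bases and Rsad2 from 147 to 138 bases before the start. The second motif was found in Irf1 alone of the 6, from 142 to 134 bases before the start, and in 1476 promoters of the table (4.41%). Neither set of letters was in the window of Mx1. These matches are descriptions of sequence.

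On the arrays, a level is the log2 processed signal relative to the 75th percentile of the same array. Between 57.0% and 61.5% of the spots of an array were well above background, none was saturated, and the correlation between any 2 arrays over 22969 probes was between 0.970 and 0.993. All 8 arrays lay on 1 slide. The first set of 4 arrays held the 2 MHs and control SHPC replicates 1 and 2, and the second held control SHPC replicate 3 and the 3 BM-MC SHPCs, so that position and transplantation largely coincide. All 10 hepatocyte markers and all 10 members were well above background on each of the 7 arrays whose marks were complete. In captured tissue, fewer cells of a type and less RNA per cell cannot be told apart.

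Between BM-MC SHPCs and control SHPCs, all 10 members had a higher mean with BM-MCs, as had 52.6% of all probes tested. The log2 fold changes ran from 0.0061 for Irf1 to 0.90 for Mx1, with a median of 0.28, against 0.018 over all 23111 probes tested. None passed an adjusted p of 0.05 by limma with Benjamini-Hochberg adjustment, where 0.0216% of all probes were called in either direction. Mx1, Mx2, Irf7 and Usp18 were higher in every BM-MC sample than in every control, and no member was lower in this way. Over all probes, 13.1% were higher and 11.7% lower with no overlap. At an unadjusted p under 0.05, 2 members were higher, Mx1 and Usp18, and 0 were lower, against 10.7% and 5.92% of all probes. The methods' t-test gave 1 member, Mx1, as higher at an unadjusted p under 0.05 and 0 as lower, against 8.12% and 6.82% of all probes, and 0 members after Benjamini-Hochberg adjustment.

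These counts moved with the scaling. When each array was scaled to its median, the median of all probes was -0.17, and the median of the members was 0.087. The distance between both medians was 0.26 under either scaling, since both move together. It was 0.16 with the set of 4 arrays as a block and also when replicate 1 of the BM-MC SHPCs was left out, and 0.46 when their replicate 2 was, and the median of the members was then 0.14, 0.19 and 0.46. With median scaling, 9 of 10 members were above 0, and Mx1 alone was higher with no overlap, where 5.98% of all probes were higher and 26.6% lower in this way. Quantile normalization gave the same 4 members as the main scaling.

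**Figure D1:**
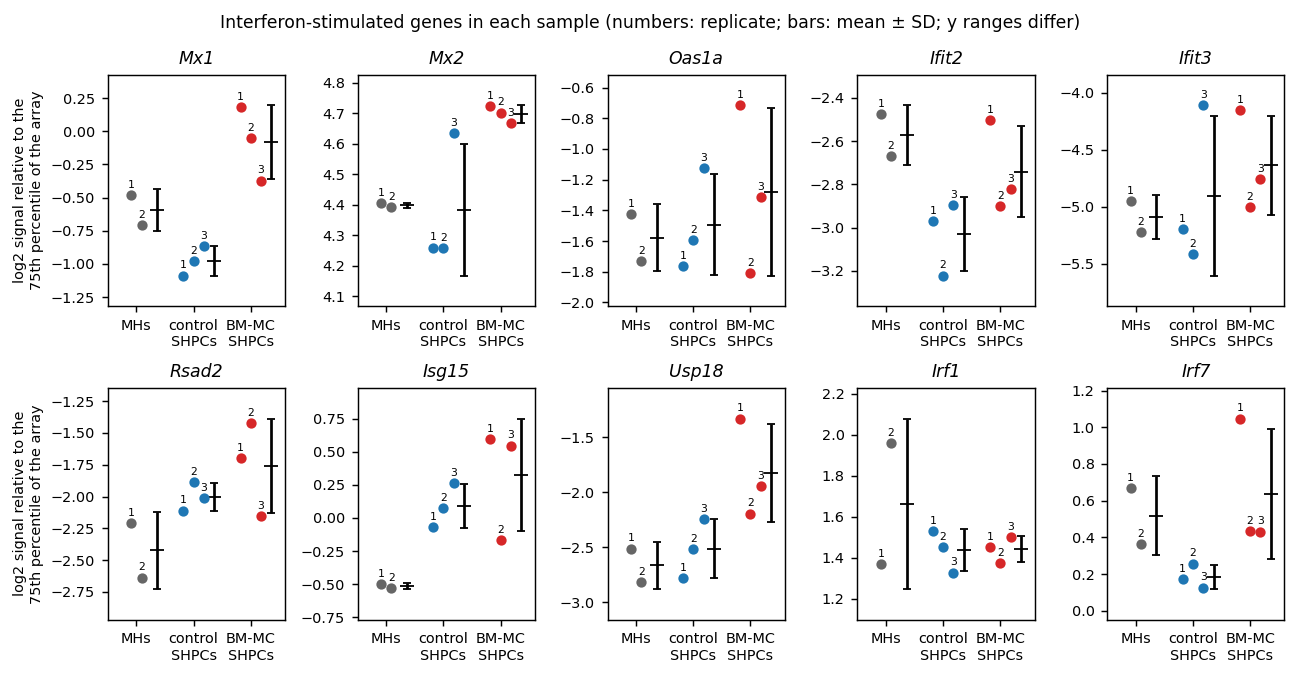
Log2 level of each member in each sample, relative to the 75th percentile of the array. Points are samples with their replicate number, bars are the mean and SD of a group (n = 2, 3 and 3), and the y ranges differ between panels. Mx1, Mx2, Irf7 and Usp18 were higher in all 3 BM-MC SHPCs than in all 3 control SHPCs, and the other 6 members overlapped.

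Mx1 and Mx2 encode dynamin-like GTPases that block viruses. The Mx1 level was -0.48 and -0.71 in MHs, -1.09, -0.98 and -0.86 in control SHPCs, and 0.18, -0.050 and -0.37 in BM-MC SHPCs. The 3 groups did not overlap, with control SHPCs lowest and BM-MC SHPCs highest. The mean was -0.98 ± 0.11 (SD, n = 3) in control SHPCs and -0.081 ± 0.28 (SD, n = 3) with BM-MCs, a log2 fold change of 0.90 (standard error 0.17), or 1.86-fold. Its adjusted p was 0.13 by limma and its unadjusted p was 0.0014. Over 19 alternatives the log2 fold change of Mx1 ran from 0.70 to 1.04 and the adjusted p by limma or the methods' t-test from 0.067 to 0.42. Against MHs, Mx1 was 0.51 higher in BM-MC SHPCs (adjusted p = 0.33 by limma) and 0.38 lower in control SHPCs on the log2 scale.

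Mx2 had 2 tested probes, and they gave differences of unlike size. By its brighter probe, the Mx2 level was 4.40 and 4.39 in MHs, 4.26, 4.26 and 4.63 in control SHPCs, and 4.72, 4.70 and 4.67 in BM-MC SHPCs. Control SHPC replicate 3, on the same set of arrays as the BM-MC SHPCs, was closest to them. The log2 fold change between BM-MC and control SHPCs was 0.31 (standard error 0.14, adjusted p = 0.32 by limma). By its other probe, Mx2 was at -4.68 and -5.07 in MHs, at -5.33, -5.12 and -5.12 in control SHPCs, and at -3.88, -4.52 and -4.46 in BM-MC SHPCs. Every BM-MC sample was above all others there, and the log2 fold change against controls was 0.90 (standard error 0.19, adjusted p = 0.15 by limma). Mx1 and Mx2 are related in sequence, and whether their probes share transcripts was not tested.

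Usp18 encodes a protease that removes Isg15 from proteins and also dampens signalling at Ifnar2. The Usp18 level was -2.51 and -2.82 in MHs, -2.78, -2.52 and -2.24 in control SHPCs, and -1.33, -2.20 and -1.95 in BM-MC SHPCs. All 3 BM-MC samples were above the other 5, and replicate 1 stood highest. The log2 fold change was 0.69 against controls (standard error 0.26, adjusted p = 0.27 by limma) and 0.84 against MHs (standard error 0.28, adjusted p = 0.31 by limma). Against MHs it ran from 0.44 to 1.03 over 21 alternatives. Without BM-MC SHPC replicate 1 the difference from controls was 0.44. Isg15, the ubiquitin-like protein that Usp18 removes, had another order. The Isg15 level was -0.50 and -0.53 in MHs, -0.067, 0.076 and 0.27 in control SHPCs, and 0.59, -0.17 and 0.55 in BM-MC SHPCs. Both MHs were below all 6 SHPC samples, while the SHPC groups overlapped because BM-MC SHPC replicate 2 lay below every control. Isg15 differed from MHs by 0.61 in control SHPCs (standard error 0.24, adjusted p = 0.24 by limma) and by 0.84 in BM-MC SHPCs (standard error 0.24, adjusted p = 0.27 by limma), and between SHPC groups by 0.23 (adjusted p = 0.63 by limma). The last of these was 0.099 without BM-MC SHPC replicate 1 and 0.48 without replicate 2.

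Irf1 and Irf7 encode transcription factors, of which Irf7 amplifies the type I response and Irf1 is a target of interferon gamma. The Irf7 level was 0.67 and 0.37 in MHs, 0.17, 0.26 and 0.13 in control SHPCs, and 1.05, 0.43 and 0.43 in BM-MC SHPCs. Control SHPCs lay below both other groups, which overlapped each other. Irf7 was 0.45 higher with BM-MCs than in controls (standard error 0.19, adjusted p = 0.30 by limma), and 0.25 higher without BM-MC SHPC replicate 1. The Irf1 level was 1.37 and 1.96 in MHs, 1.53, 1.45 and 1.33 in control SHPCs, and 1.45, 1.37 and 1.50 in BM-MC SHPCs. The 6 SHPC samples lay close to MH replicate 1 and below MH replicate 2. The difference of Irf1 between SHPC groups was 0.0061 (standard error 0.11), and it was -0.19 with median scaling.

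Ifit2 and Ifit3 encode tetratricopeptide proteins of the antiviral response. The Ifit2 level was -2.47 and -2.67 in MHs, -2.97, -3.22 and -2.90 in control SHPCs, and -2.50, -2.90 and -2.82 in BM-MC SHPCs. All controls were below both MHs, and the BM-MC samples overlapped both groups. Ifit2 differed by -0.46 between control SHPCs and MHs (standard error 0.17, adjusted p = 0.22 by limma) and by 0.29 between BM-MC and control SHPCs (standard error 0.16, adjusted p = 0.39 by limma), the latter being 0.17 without BM-MC SHPC replicate 1. The Ifit3 level was -4.95 and -5.22 in MHs, -5.20, -5.41 and -4.11 in control SHPCs, and -4.15, -5.00 and -4.76 in BM-MC SHPCs. Control SHPC replicate 3 was the highest of the 8 samples for Ifit3, 1.19 above the mean of the other controls. The difference with BM-MCs was 0.27 (standard error 0.39). It was 0.67 without that control and 0.015 without control SHPC replicate 2.

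Oas1a encodes a synthetase of the oligoadenylates that activate RNase L. The Oas1a level was -1.42 and -1.73 in MHs, -1.76, -1.60 and -1.12 in control SHPCs, and -0.71, -1.81 and -1.31 in BM-MC SHPCs. The highest and the lowest of the 8 values were both BM-MC samples. The difference from controls was 0.22 (standard error 0.31), and it was -0.066 without BM-MC SHPC replicate 1. The other probe of Oas1a gave 0.17 (standard error 0.25). Rsad2 encodes viperin, an enzyme that makes a chain-terminating nucleotide. The Rsad2 level was -2.21 and -2.64 in MHs, -2.11, -1.89 and -2.01 in control SHPCs, and -1.70, -1.42 and -2.16 in BM-MC SHPCs. Both MHs were below all SHPC samples, and BM-MC SHPC replicate 3 was below every control. Rsad2 was 0.67 higher in BM-MC SHPCs than in MHs (standard error 0.23, adjusted p = 0.32 by limma), and 0.24 higher than in controls (standard error 0.20, adjusted p = 0.56 by limma). The difference of Rsad2 from controls was 0.076 without BM-MC SHPC replicate 2 and 0.44 without replicate 3. The other probe of Rsad2 was not well above background on any array with complete marks.

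**Figure D2:**
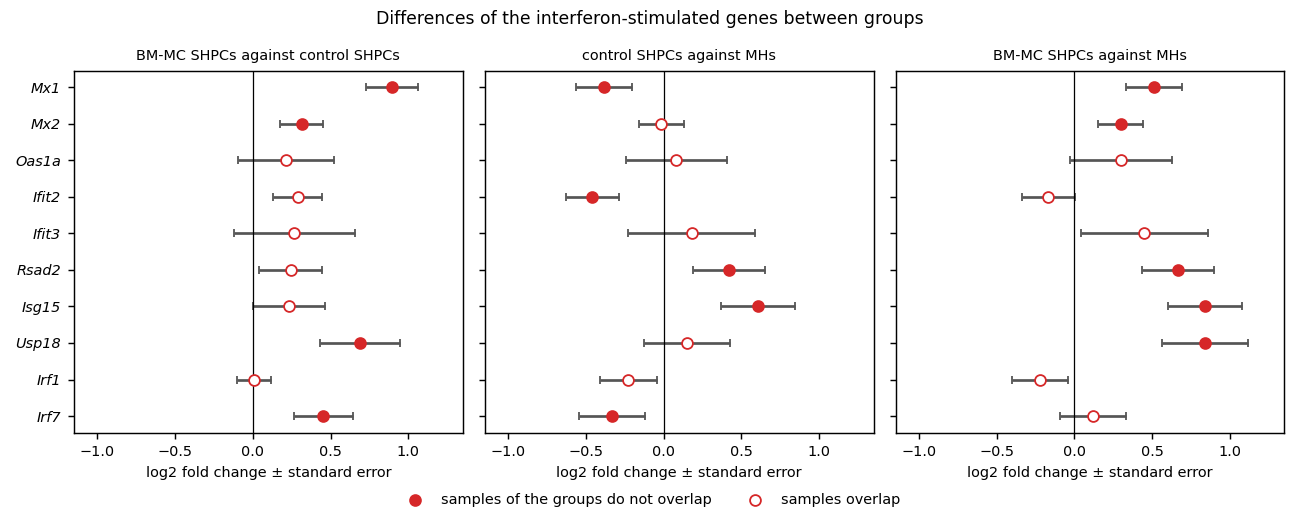
Log2 fold change (x axis) of each member in the 3 comparisons, with its standard error from limma. Filled points mark members whose samples do not overlap between both groups. All 10 points lie above 0 for BM-MC SHPCs against control SHPCs, from 0.0061 to 0.90, and none passed the adjusted threshold.

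Between control SHPCs and MHs, the members split evenly, with 5 above 0 (46.2% of all probes), 5 below 0 and a median log2 fold change of 0.034, against -0.032 over all probes. That median was -0.16 without control SHPC replicate 3 and with the set of 4 arrays as a block, -0.010 without MH replicate 2, and between 0.091 and 0.13 when MH replicate 1 or one of the other controls was left out. Limma called 0 of the 10 members, where 1.13% of all probes were called in either direction. Isg15 and Rsad2 were higher in control SHPCs with no overlap, where 18.7% of all probes were higher in this way. Ifit2, Irf7 and Mx1 were lower with no overlap, where 22.7% of all probes were lower in this way. At an unadjusted p under 0.05, Isg15 was higher and Ifit2 lower (8.21% and 11% of all probes), while the methods' t-test gave Isg15 as higher and Mx1 as lower (8.08% and 9.39% of all probes), and 0 after Benjamini-Hochberg adjustment.

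Between BM-MC SHPCs and MHs, 8 of 10 members were above 0 (50.5% of all probes), and the median log2 fold change was 0.37, against 0.0030 over all probes. That median was 0.077 with the set of 4 arrays as a block, 0.18 with median scaling (-0.19 over all probes) and 0.25 without BM-MC SHPC replicate 1. Limma called 0 of the 10, where 0.338% of all probes were called in either direction. Isg15, Mx1, Mx2, Rsad2 and Usp18 were higher with no overlap (16.1% of all probes) and none was lower (16.3%). At an unadjusted p under 0.05, 4 were higher, namely Isg15, Usp18, Rsad2 and Mx1 (7.33% of all probes), and 0 were lower (5.95%), both being 0 in the block fit, while the methods' t-test gave Mx2 alone, as higher (4.39% of all probes higher and 4.87% lower), and 0 after adjustment. With median scaling, Isg15, Mx2 and Usp18 were higher with no overlap (7.09% of all probes) and Irf1 was lower (36.8%). This comparison shares the MHs with the previous one and the BM-MC SHPCs with the first.

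By group means, 5 members were highest in BM-MC SHPCs, intermediate in control SHPCs and lowest in MHs, namely Ifit3, Isg15, Oas1a, Rsad2 and Usp18. Mx1, Mx2 and Irf7 were highest in BM-MC SHPCs and lowest in control SHPCs. Ifit2 and Irf1 were highest in MHs and lowest in control SHPCs. Of these neighbouring groups, those whose samples did not overlap were all 3 for Mx1, MHs and control SHPCs for Isg15 and Rsad2, MHs and control SHPCs for Irf7, BM-MC SHPCs and control SHPCs for Usp18, and BM-MC SHPCs and MHs for Mx2.

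The BM-MC SHPCs were not alike. Replicate 1 had the highest of the 8 values for 6 members (Irf7, Isg15, Mx1, Mx2, Oas1a and Usp18) and was the highest of its group for 8. The mean of the 10 members, each centred on its own mean over the samples, was 0.51 in BM-MC SHPC replicate 1, 0.045 in replicate 2 and 0.13 in replicate 3. It was -0.25, -0.21 and 0.058 in the control SHPCs and -0.063 and -0.21 in the MHs. Control SHPC replicate 3 therefore lay above BM-MC SHPC replicate 2. The SD within a group had a median over the members of 0.17 in control SHPCs (from 0.066 for Irf7 to 0.70 for Ifit3) and of 0.36 in BM-MC SHPCs (from 0.029 for Mx2 to 0.55 for Oas1a).

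**Figure D3:**
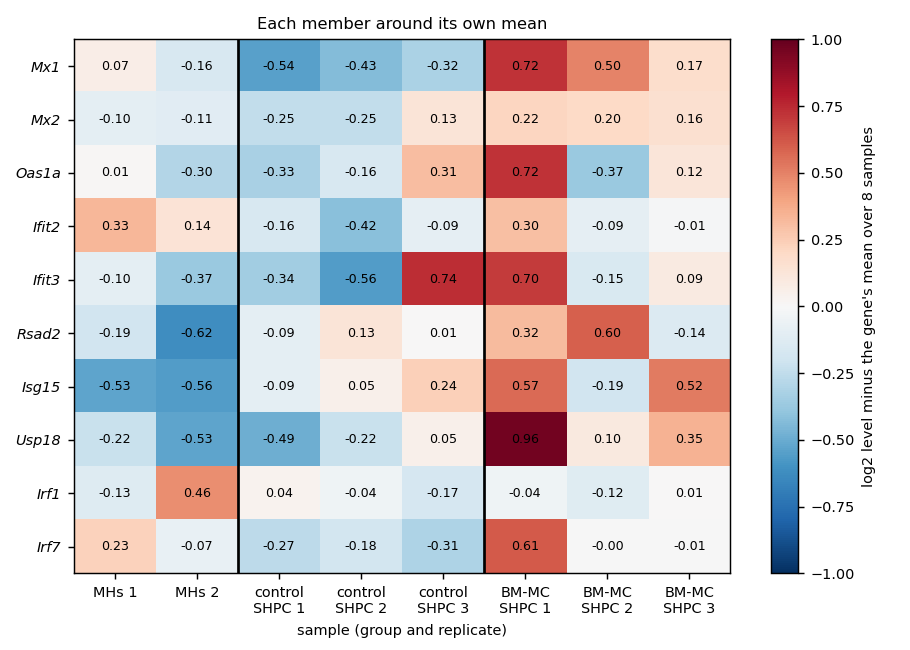
Log2 level of each member (rows) in each sample (columns) minus the mean of that member over the 8 samples, in colour and number. BM-MC SHPC replicate 1 was above the mean for 9 of 10 members, and Usp18 showed the highest value there, 0.96.

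Within the second set of 4 arrays, the BM-MC SHPCs minus control SHPC replicate 3 gave Mx1 0.78, Irf7 0.51, Usp18 0.42, Rsad2 0.25, Ifit2 0.15, Irf1 0.12, Mx2 0.064 and Isg15 0.060. It gave Oas1a -0.15 and Ifit3 -0.53. Hence 8 of 10 members were above 0 within this set, against 47.4% of all probes, and this rests on 1 control. For Mx1, Mx2, Irf7 and Usp18, whose groups do not overlap, this was fixed by that result. Of the 6 other members, 4 were above 0 and 2 below. Within the first set, control SHPC replicates 1 and 2 minus both MHs gave Isg15 0.52, Rsad2 0.42, Irf7 -0.30, Mx1 -0.44 and Ifit2 -0.52. The groups of these 5 members do not overlap, so that their direction was fixed. Of the other members, Ifit3 was at -0.22 and Oas1a at -0.10 within the first set, against 0.18 and 0.083 in the whole comparison, while Irf1, Mx2 and Usp18 kept their direction. The part of position on the slide in the other differences was not tested.

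Over the 45 pairs of members, the Pearson correlation across the 8 samples had a median of 0.45 and was above 0 in 35 pairs. The samples share groups and array positions, so this is a description only. Oas1a and Ifit3 had the highest correlation (0.87) and Irf1 and Rsad2 the lowest (-0.71). Irf1 had a median correlation with the other members of -0.34, and Usp18 of 0.75. Of 14300 genes outside all lists, the 5 most like the mean of the centred members were Tmem175 (0.97), Pde3a (0.95), Fcgrt (0.95), Slc23a2 (0.95) and Uba7 (0.94). Tmem175 encodes a lysosomal channel, Pde3a a phosphodiesterase, Fcgrt the neonatal Fc receptor, Slc23a2 a vitamin C transporter and Uba7 the enzyme that activates Isg15 for conjugation. The Uba7 level was -2.57 and -2.85 in MHs, -2.80, -2.77 and -2.39 in control SHPCs, and -2.05, -2.40 and -2.16 in BM-MC SHPCs. Uba7 was chosen by its likeness to the members, so that its order of samples is no separate result.

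Of 91 other genes of the interferon pathway on the array, 74 were tested. By the brightest probe of each gene, limma called 0 of them in each of the 3 comparisons, as did the methods' t-test after Benjamini-Hochberg adjustment. Over all 97 tested probes of these genes, limma called 1, the dimmer probe of Mb21d1 in control SHPCs against MHs. Between BM-MC and control SHPCs, 10 had an unadjusted p under 0.05 and were higher, and 0 were lower (10.7% and 5.92% of all probes). With no overlap, 18 were higher and 0 were lower (13.1% and 11.7% of all probes), and the median was 0.12, against 0.018 over all probes. With median scaling these became 3 higher and 5 lower, and the pathway genes above 0 went from 57 to 26 of 74. Median scaling moved the median of all probes to -0.17 and that of the pathway genes to -0.067, so that the sign against 0 moved with the scaling while the pathway median lay 0.11 above that of all probes under both. Between control SHPCs and MHs, 2 were higher and 12 lower at an unadjusted p under 0.05, against 8.21% and 11% of all probes. With no overlap, 7 were higher and 27 lower (18.7% and 22.7% of all probes), and the median was -0.18, against -0.032 over all probes. The count below 0 was 55 of 74 under the main, median and quantile scalings, against 53.8% of all probes in the main one. Between BM-MC SHPCs and MHs, 4 were higher and 4 lower at an unadjusted p under 0.05 (7.33% and 5.95% of all probes).

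**Figure D4:**
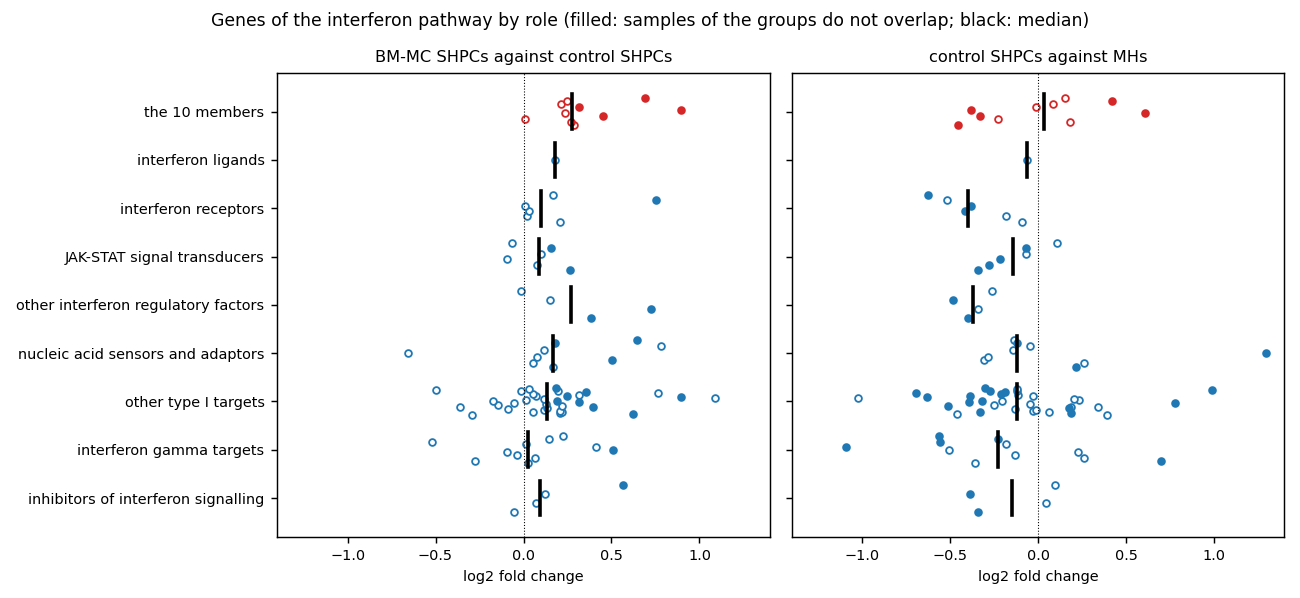
Log2 fold change (x axis) of the 10 members (red) and of 74 other tested pathway genes (blue) by role, for BM-MC SHPCs against control SHPCs and for control SHPCs against MHs. Black lines are medians and filled points are genes whose samples do not overlap; the receptors had a median of 0.10 on the left and -0.40 on the right.

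Of the ligands, 1 of 8 genes on the array was tested, Ifna4, a member of a multigene family whose probe may bind related genes. Ifnb1 and Ifng were not well above background on enough arrays to be tested. Of 6 receptor genes, all were above 0 with BM-MCs against controls (52.6% of all probes) and all were below 0 in controls against MHs (53.8%). With median scaling 2, Ifnar1 and Ifnlr1, were above 0 in the first comparison and all were below 0 in the second. Without control SHPC replicate 2, Ifnar1 was at 0.10 in controls against MHs, where it was -0.090 with all samples. Ifnar1 and Ifnar2 differed by 0.21 and 0.017 between BM-MC and control SHPCs, and Ifngr1 and Ifngr2 by 0.034 and 0.011, of which Ifnar2 and Ifngr2 lay below the median of all probes, 0.018. Ifnar1 was at 0.019 without control SHPC replicate 2, and Ifngr1 and Ifngr2 at -0.051 and -0.12 without control SHPC replicate 3. Ifngr1 and Ifngr2 were 0.41 and 0.38 lower in control SHPCs than in MHs on the log2 scale with no overlap (adjusted p = 0.28 and 0.34 by limma), at -0.27 for Ifngr1 without MH replicate 2 and at -0.23 for Ifngr2 without MH replicate 1. Ifnlr1, the receptor chain for lambda interferons, was 0.75 higher with BM-MCs (adjusted p = 0.37 by limma), or 0.33 without control SHPC replicate 3, and was well above background on 1 of 2 control arrays with complete marks.

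Of 6 signal transducers, Jak1 was at 3.73 and 3.75 in MHs, at 3.45, 3.40 and 3.52 in control SHPCs, and at 3.53, 3.56 and 3.51 in BM-MC SHPCs. Jak1 was lower in all SHPC samples than in both MHs, with a log2 fold change of -0.28 in controls (standard error 0.11, adjusted p = 0.22 by limma). A dimmer probe of Jak1 gave 0.031 in the same comparison, with overlap. Irf9 was at 1.20 and 0.90 in MHs, at 0.64, 0.75 and 0.73 in control SHPCs, and at 1.14, 0.91 and 0.87 in BM-MC SHPCs. Control SHPCs were lowest for Irf9, which was 0.27 higher with BM-MCs (adjusted p = 0.33 by limma) and differed by -0.34 from MHs in controls (adjusted p = 0.26 by limma), or -0.20 without MH replicate 1. The samples overlapped in both comparisons by its dimmer probe, at 0.25 and -0.22. Stat2 and Tyk2 had log2 fold changes of 0.15 (0.078 without BM-MC SHPC replicate 2) and -0.064 between BM-MC and control SHPCs, and 2 dimmer probes of Tyk2 gave 0.20 and -0.15.

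Of the other targets of type I interferon, Oasl2, an oligoadenylate synthetase-like gene, had the order of Mx1. The Oasl2 level was -1.78 and -1.73 in MHs, -2.51, -2.35 and -2.31 in control SHPCs, and -1.23, -1.64 and -1.61 in BM-MC SHPCs. The 3 groups did not overlap. The log2 fold change of Oasl2 was 0.89 with BM-MCs (standard error 0.15, adjusted p = 0.12 by limma) and -0.63 in control SHPCs against MHs (standard error 0.16, adjusted p = 0.12 by limma). Isg20, an exonuclease, was 0.78 higher in control SHPCs (adjusted p = 0.10 by limma) and 0.72 higher in BM-MC SHPCs (adjusted p = 0.22 by limma) than in MHs, and passed in controls when limma used an intensity trend (adjusted p = 0.0496). Tor3a was 0.99 higher in control SHPCs than in MHs (adjusted p = 0.31 by limma), and 0.60 without control SHPC replicate 3. Ifit1 was not well above background on any array with complete marks.

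Irf3, the factor that induces interferon genes, was 0.72 higher with BM-MCs than in controls with no overlap (adjusted p = 0.19 by limma), and 0.55 by a dimmer probe, with overlap. The sensor Mb21d1, which makes cyclic dinucleotides from cytosolic DNA, was 1.30 higher in control SHPCs than in MHs (adjusted p = 0.14 by limma). By its dimmer probe Mb21d1 rose by 1.19 in that comparison (standard error 0.20, adjusted p = 0.041 by limma), with 1 of 2 MH arrays well above background. Over 19 alternatives this probe passed in 6, with log2 fold changes from 0.50 to 1.50 and adjusted p from 0.027 to 0.21 by limma or the methods' t-test, and it did not pass without MH replicate 1 or without any single control SHPC. It was also lost without BM-MC SHPC replicate 1 or 2, with the filter on dim probes removed, and with the set of 4 arrays as a block. Between BM-MC and control SHPCs, Mb21d1 differed by -0.66 by its brighter probe, with overlap (adjusted p = 0.39 by limma). Its dimmer probe was not well above background on any BM-MC array. Its signal was 1.83-fold higher in controls with no overlap (adjusted p = 0.089 by limma). This fold takes the signals as measured, and for a probe not well above background it is no bound on the difference. Gbp4, a target of interferon gamma, differed by -1.09 between control SHPCs and MHs (adjusted p = 0.19 by limma) and was well above background on 1 of 2 control arrays with complete marks. Ifi47, another such target, differed by -1.07 between BM-MC SHPCs and MHs (adjusted p = 0.31 by limma), and by -0.66 with overlap by a dimmer probe. Socs3, an inhibitor of JAK-STAT signalling, was 0.66 higher in BM-MC SHPCs than in MHs (adjusted p = 0.30 by limma).

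Markers of other cells moved along with some of these differences. The summed level of 12 Kupffer cell and macrophage markers, all tested, was 6.64 and 6.58 in MHs, 6.15, 6.13 and 5.61 in control SHPCs, and 6.42, 6.43 and 5.93 in BM-MC SHPCs, and BM-MC SHPC replicate 1 was not above replicate 2. Of these markers, 8 were lower in control SHPCs than in MHs at an unadjusted p under 0.05 by limma (11% of all probes). With BM-MCs against controls, 1 was higher at that threshold (10.7% of all probes). Of 10 granulocyte markers, 3 were tested (S100a8, S100a9 and Retnlg) and were lower with BM-MCs, with a median of -1.46, and Mpo and Elane were not well above background on any array with complete marks. All 10 together had a summed level of -1.24 and 0.63 in MHs, from 0.25 to 0.71 in control SHPCs and from -1.30 to -0.94 with BM-MCs. Of 7 markers of plasmacytoid dendritic cells, 4 were tested, of which Bst2 and Irf8 are also interferon pathway genes. The summed level of all 7 was 2.78 and 3.43 in MHs, 2.68, 2.996 and 2.38 in control SHPCs, and 3.11, 3.39 and 3.23 in BM-MC SHPCs. Bst2, an interferon target, carried most of this sum, which without it was 0.35 and 0.48 in MHs, from 0.18 to 0.23 in control SHPCs and from 0.34 to 0.64 in BM-MC SHPCs. Of 16 markers of lymphocytes and natural killer cells, 9 were tested. With BM-MCs against controls, 5 of these were above 0 and 4 below, with a median of 0.0055. In controls against MHs, 7 were above 0 and 2 below, with a median of 0.076. The T cell receptor chains Cd3d and Cd3g had values of -0.30 and -0.58 with BM-MCs against controls. They had 0.42 and 0.89 in controls against MHs. Each was without overlap (11.7% of all probes lower and 18.7% higher) and had an unadjusted p under 0.05 by limma (5.92% and 8.21%). All 16 together had a summed level of 1.97 and 2.25 in MHs, 2.28, 2.27 and 2.02 in control SHPCs, and 1.99, 2.03 and 2.33 in BM-MC SHPCs. Of 7 cholangiocyte markers, 6 were tested. Their median was 0.74 in control SHPCs against MHs, where 3 were higher and 0 lower with no overlap (18.7% and 22.7% of all probes). It was -0.35 with BM-MCs against controls, where 0 were higher and 1, Epcam, was lower in this way (13.1% and 11.7% of all probes). The summed level of all 7 was -0.996 and -1.46 in MHs and ran from -0.99 to -0.84 in control SHPCs and from -0.94 to -0.64 with BM-MCs. The summed level of 8 sinusoidal endothelial markers was 4.23 and 3.95 in MHs. It ran from 3.77 to 3.96 in control SHPCs and from 3.96 to 4.13 with BM-MCs. In BM-MC SHPC replicate 1, where most members were highest, the summed level of 10 hepatocyte markers was 9.70, against 9.86 to 10.1 in the other samples. The summed level of 11 markers of stellate cells and fibroblasts, of which 10 were tested, was 3.54 there, against 2.93 to 3.22 in the other samples. The part of these cells in the members' differences was not tested.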

How the data were processed

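RNA of 8 microdissected samples was labelled with Cy3 and hybridised to 1-colour Agilent rat arrays. The authors deposited the processed signal of Agilent Feature Extraction 10.7, an intensity after background subtraction with no scaling between arrays, as a value table and as scanner files. One scanner file (control SHPC replicate 2) held 20903 of 62976 features, so all signals were taken from the table, and its background marks were not used in the filter.

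After removal of outlier spots, log2 signals were taken relative to each array's 75th percentile and averaged over the spots of a probe. A probe entered the test if well above background on 3 or more of the 7 arrays whose marks were complete, which left 23111 of 45598 probes. These were tested by limma 3.58.1 in R 4.3.3 (2-sided, Benjamini-Hochberg adjustment over all probes, threshold 0.05). BM-MC and control SHPCs were compared on their 6 samples, and the comparisons with MHs came from 1 fit of all 8. The design counted arrays for this filter over all samples, and 7 replaced 8. The procedure was tested on simulated data. The number of arrays limits the precision. Probes were named from the array annotation, updated through the RefSeq table of GRCr8.

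A gene was given by its brightest tested probe. Besides the members, the text names 10 pathway genes in any case (1 of them is not reported here), pathway genes past the threshold, the 3 pathway genes with the largest change without overlap in each comparison, and the 5 genes most like the members; Uba7 and the markers named singly were picked after their values were seen. Members and lists were chosen with earlier results of these data known. Alternatives changed the scaling, background correction, filter, outliers, fit, blocks, test and probe choice, and left out each sample in turn.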

Additional observations from a re-analysis of the deposited data

How the results depend on the processing

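No member passed the adjusted threshold in any comparison under any alternative run, limma or the methods' t-test (19 alternatives for BM-MC against control SHPCs and 21 for each other comparison). Of the members' log2 fold changes under these alternatives, 183 of BM-MC against control SHPCs kept their direction and 7 did not, 200 of control SHPCs against MHs did and 10 did not, and 203 of BM-MC SHPCs against MHs did and 7 did not. The causes were not tested.

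With median scaling, 1 member was higher with BM-MCs than in controls with no overlap (4 in the main scaling), 3 were higher and 1 lower in BM-MC SHPCs than in MHs (5 and 0), Irf1 was at -0.19 between SHPC groups and Irf7 at -0.077 between BM-MC SHPCs and MHs. With normexp, on the arrays with a complete scanner file, Ifit3 was at -0.023 between SHPC groups and Mx2 at 0.064 between control SHPCs and MHs. With the set of 4 arrays as a block, 3 members were above 0 in control SHPCs against MHs (5) and 5 in BM-MC SHPCs against MHs (8). In that fit Ifit3 was at -0.53, -0.22 and -0.74 and Oas1a at -0.15, -0.10 and -0.26 in BM-MC against control SHPCs, control SHPCs against MHs and BM-MC SHPCs against MHs, and Mx2 was at -0.075 in the last. With an intensity trend, 1 pathway gene was called in control SHPCs against MHs (0), Isg20.

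Leaving out each sample in turn, the members above 0 ran from 9 to 10 in BM-MC against control SHPCs, from 3 (without control SHPC replicate 3) to 6 in control SHPCs against MHs, and from 7 to 8 in BM-MC SHPCs against MHs. Members higher with no overlap ran from 4 to 6, from 2 to 3 and from 5 to 7. Members lower in BM-MC SHPCs than in MHs with no overlap ran from 0 to 1. The counts of 7 and 1 were without MH replicate 1, which left MH replicate 2 alone. Such counts can only stay or rise when a sample is left out, and the shares of all probes were not computed. Their rise is therefore no result about the members. Between SHPC groups Irf1 ran from -0.049 to 0.053 and Oas1a from -0.066 to 0.48. In control SHPCs against MHs, Irf1 ran from -0.52 to 0.068, Oas1a from -0.10 to 0.24, Mx2 from -0.14 to 0.048 and Ifit3 from -0.22 to 0.43. In BM-MC SHPCs against MHs, Irf1 ran from -0.51 to 0.074 and Irf7 from -0.084 to 0.27.

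The replicate numbers do not pair the samples by their labels. Deviations of same-numbered BM-MC and control SHPCs correlated at 0.13, 0.078 and 0.17. Each BM-MC SHPC sample correlated best with the control SHPC of its own number. Of the control SHPCs, only replicate 2 correlated better with another number, at 0.082 with BM-MC SHPC replicate 1 against 0.078 with replicate 2. With the replicate block, 0 members were called, Mx1 stayed at 0.90 (adjusted p = 0.23 by limma) and Oas1a was at -0.00076 in control SHPCs against MHs.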
